A study of Mus musculus with 21 samples.

Results

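Sox17, Sox7 and Sox18 form the SoxF group of transcription factors, and they are 3 of the 43437 gene IDs in the deposited tables. They were taken by name from the table of every library, and each matched 1 gene ID. The 3 genes were picked as a family with earlier results of these data known, including their unequal levels, so the tests below are not independent of that choice. SoxF proteins bind DNA through the HMG box that all Sox factors share and carry a C-terminal activation region, which in Sox17 and Sox7 also contacts beta-catenin, the effector of Wnt signalling. Sox17 and Sox7 act downstream of the GATA factors in the primitive endoderm, the blastocyst layer from which extraembryonic endoderm (XEN) cells are derived. Sox17 is needed to derive XEN cells from mouse embryos, and both factors activate the laminin gene Lama1 in mouse endoderm cell models. Sox18 is best known from blood and lymphatic vessels, where all 3 factors act in endothelial cells.

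RNA of 21 mouse libraries in 10 groups was sequenced. Levels are in FPKM, fragments scaled by the length of the gene and the size of the library. Levels of different genes set side by side rest on the transcript lengths that the quantifier assigned. This concerns Sox17 most, which has 8 annotated transcripts where Sox7 and Sox18 have 1 each. Small molecules reprogrammed fibroblasts to pluripotent cells, by way of XEN-like intermediate cells. Intermediate cells were taken on day 12, 20, 26 and 28 (1 library each, hence no replicate) and on day 16 (2 libraries), all from fibroblasts of the strain C57BL/6J-Tg(GOFGFP)11Imeg/RbrcxICR, a cross of a reporter strain with ICR. CeXEN cells (2 libraries, wild-type ICR) were XEN cells derived from E3.5 embryos in the stage 1 chemical medium VC6TFAE with 20 ng/ml bFGF. The eXEN cells (2 libraries, wild-type ICR) were 1 established line, of which replicate 1 was kept in stage 1 medium VC6TF with 20 ng/ml bFGF and replicate 2 in traditional XEN medium. The 7 CiPSC libraries were the chemically induced pluripotent lines C1 to C3, G1, G3, N4 and N6 of the same reporter cross, 1 library per line. The 2 ESC libraries came from embryonic stem cells of E3.5 embryos, replicate 1 of the reporter cross and replicate 2 of C57BL/6 (B6)N. The starting cells were 2 libraries of embryonic fibroblasts (MEF) from E13.5 embryos of the reporter cross. Strain and cell type therefore cannot be told apart where XEN cells are compared with the other cells.

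The sum of FPKM per library lay between 543198 and 864945, and 11240 to 13982 genes had at least 1 FPKM. Total read counts are not known from these tables. Libraries of 1 group correlated across genes at r = 0.935 to 0.981 on the log2(FPKM + 1) scale. In 4 libraries (day 12, day 16 replicate 1, day 20 and day 26) the quantifier's status column marks 446 loci as LOWDATA, a mark that the other 17 libraries do not carry. The markers of the labelled cell types were in place, in that the summed FPKM of 10 pluripotency genes was 4708 to 5916 in CiPSC and 5031 to 5279 in ESC and 6.78 to 61.1 in XEN cells, and that of 10 fibroblast genes was 3525 to 11438 in MEF. Intermediate libraries still held fibroblast mRNA, with a sum of 845 FPKM at day 12, 225 and 489 at day 16, 79.9 at day 20, 141 at day 26 and 12.8 at day 28, against 1.998 to 39.7 FPKM in the 4 XEN libraries. The pluripotency sum was 9.57 to 640 FPKM in intermediate libraries, highest at day 26. In such bulk samples, fewer cells that express a gene and less of its RNA per cell cannot be told apart. Nothing in the labels makes the replicates of MEF, day 16 and CeXEN separate cultures. Those of eXEN differ in medium, those of ESC in strain, and the CiPSC libraries are different lines. The p-values rest on a spread pooled over these groups, which mixes such differences with a part that may be technical.

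Sox17 (ENSMUSG00000025902) lies on mm10 chromosome 1 at 4490931 to 4497354, on the minus strand, and has 8 annotated transcripts in GENCODE M21. The transcript Gm37587 on the other strand overlaps it by 804 bases and had at most 0.942 FPKM. Sox7 (ENSMUSG00000063060) lies on chromosome 14 at 63943674 to 63950732, on the plus strand, with 1 annotated transcript of 2 exons. Sox18 (ENSMUSG00000046470) lies on chromosome 2 at 181669836 to 181671640, on the minus strand, also with 1 transcript of 2 exons. The values sum all transcripts of a gene.

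The 3 factors were used in different proportions. From day 16 on, intermediate cells held Sox17 mRNA within or above the CeXEN range, and at day 12 somewhat below it. XEN cells held about 3 times as much Sox7 as intermediate cells, and in the established eXEN line neither of Sox17 and Sox7 exceeded the other by more than 1.43 times. Sox18 was nearly absent from all of these libraries. In fibroblasts and in pluripotent cells all 3 genes stood below 2 FPKM.

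Sox17 stood at 330 FPKM at day 12, 599 and 432 at day 16, 513 at day 20, 477 at day 26 and 548 FPKM at day 28. It stood at 498 and 351 FPKM in CeXEN and at 148 and 198 FPKM in eXEN. The intermediate and CeXEN libraries thus overlapped, and both eXEN libraries lay below all of them. The 7 CiPSC lines had 0.369 to 1.89 FPKM with a median of 0.773, the ESC libraries 0.548 and 0.866 FPKM, and the MEF libraries 0.211 and 0 FPKM. In order of mean level, day 28, day 16, day 20, day 26 and CeXEN came first, then day 12, then eXEN, then CiPSC and ESC, then MEF. The SD was 119 FPKM at day 16 and 104 FPKM in CeXEN (n = 2 each), so the neighbours from day 28 to CeXEN do not differ beyond the spread of the replicated groups. The CiPSC and ESC ranges overlapped as well.

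Sox7 gave another order. It stood at 16.3 FPKM at day 12, 51.9 and 65.7 at day 16, 49.98 at day 20, 53.1 at day 26 and 48.9 FPKM at day 28. The CeXEN libraries had 150 and 125 FPKM and the eXEN libraries 177 and 138 FPKM. All 4 XEN libraries therefore lay above all 6 intermediate libraries, and the CeXEN and eXEN ranges overlapped. The CiPSC lines had 0.122 to 0.699 FPKM with a median of 0.535, the ESC libraries 0.242 and 0.334 FPKM and the MEF libraries 0.121 and 0.0218 FPKM. By mean level eXEN and CeXEN led, followed by day 16, day 26, day 20 and day 28, which lay within the SD of 9.77 FPKM of the 2 day 16 libraries around their mean of 58.8 FPKM or just outside it, then by day 12 and far below by CiPSC, ESC and MEF.

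Sox18 had less than 1 FPKM in 20 of the 21 libraries. It was listed at 0 in day 16 replicate 1, day 26, day 28, both CeXEN libraries, eXEN replicate 2 and MEF replicate 1. It had 0.148 FPKM at day 12, 0.0902 in day 16 replicate 2, 0.0501 at day 20, 0.127 in eXEN replicate 1 and 0.143 in MEF replicate 2. The bounds deposited with each FPKM were taken to lie 2 square roots of the fragment number away from it for a gene with 1 transcript. For Sox18 this gives about 3 fragments at day 12, 2 in day 16 replicate 2, 1 at day 20 and 3 in eXEN replicate 1. Such numbers are estimates. Over low values of all genes, 33.2% to 42.9% per library were whole within 0.05. The 10 intermediate and XEN libraries thus hold about 9 Sox18 fragments in all, whereas Sox7 has about 712 fragments at day 12, the library with the lowest Sox7 level of the 10. The 7 CiPSC lines had 0.0891 to 1.32 FPKM with a median of 0.658, and the ESC libraries 0.212 and 0.868 FPKM. Line C2, at 0.0891 FPKM, lay within the range of the intermediate and XEN libraries. CiPSC line C3 was the only library above 1 FPKM, and its value rests on about 10 fragments. Sox18 therefore failed the filter on low values (at least 1 FPKM in at least 2 libraries) and was not tested in any comparison. With no filter none of its changes passed, and the nearest was CiPSC against day 16 at 0.61 ± 0.24 on the log2(FPKM + 1) scale (SE, adjusted p = 0.0714, limma).

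**Figure D1:**
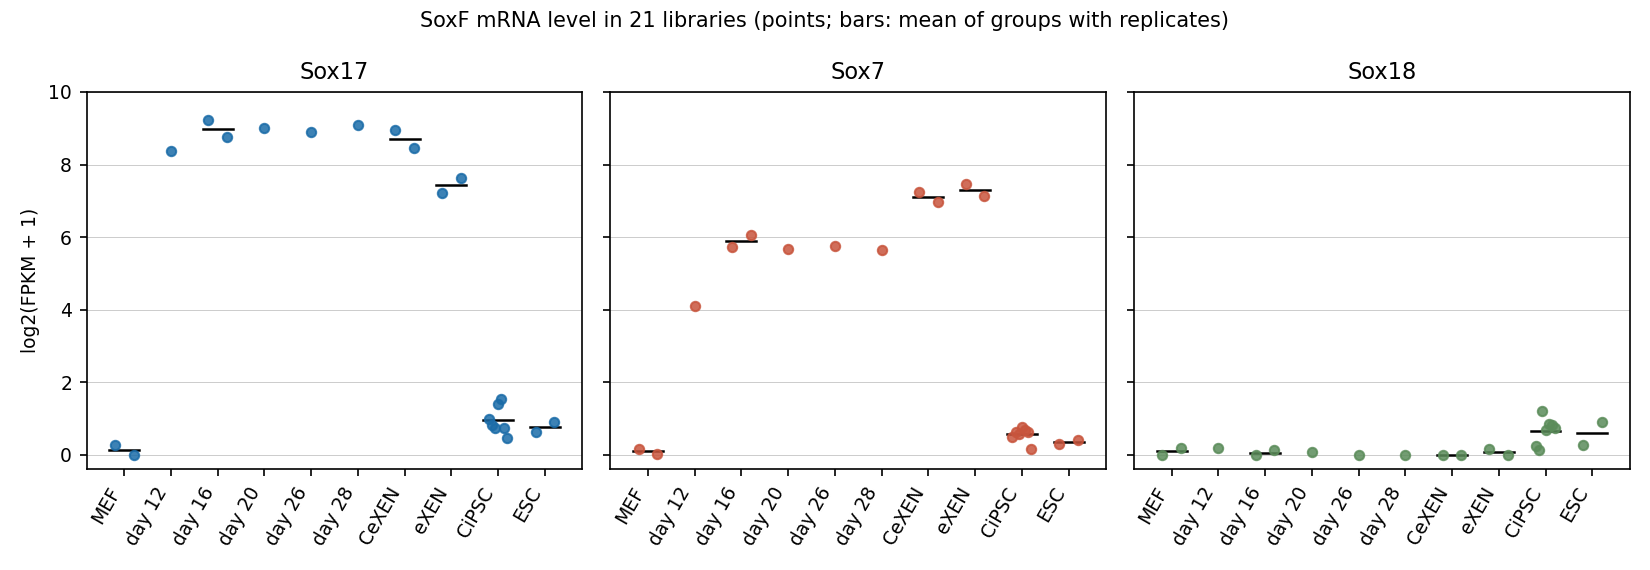
Level of Sox17, Sox7 and Sox18 in each of the 21 libraries, as log2(FPKM + 1) on the vertical axis, by group; points are libraries and bars the mean of groups with more than 1 library. Sox17 is high from day 12 to day 28 and in CeXEN and lower in eXEN, Sox7 is highest in both kinds of XEN cells, and Sox18 stays near 0 except for low values in CiPSC and ESC.

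The balance of the 3 factors was compared within each library. Cells expressing none of them do not enter the shares or the FPKM ratio of Sox17 to Sox7. Of the summed SoxF FPKM, Sox17 made up 86.8% to 95.3% in the 6 intermediate libraries with a median of 91.5%, 76.9% and 73.8% in CeXEN, and 45.5% and 58.9% in eXEN. Sox7 made up nearly all of the rest, with 4.70% to 13.2% in intermediate libraries, 23.1% and 26.2% in CeXEN and 54.5% and 41.1% in eXEN. Sox17 exceeded Sox7 by 6.57 to 20.3 times in intermediate libraries and by 3.33 and 2.81 times in CeXEN, while the ratio of Sox17 to Sox7 was 0.834 in eXEN replicate 1 and 1.43 in eXEN replicate 2. The 3 kinds of cells did not overlap in this ratio. These shares and ratios are those of FPKM and rest on the transcript lengths assigned to Sox17, which were not examined. The summed SoxF level itself did overlap between intermediate libraries (347 to 651 FPKM) and CeXEN (647 and 476 FPKM), and was 325 and 337 FPKM in eXEN.

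On the log2(FPKM + 1) scale, the ratio of Sox17 to Sox7 averaged 3.40 ± 0.51 in the intermediate libraries (SD, n = 6) and 0.87 ± 0.92 in the XEN libraries (SD, n = 4), a difference of 2.53. By the exact permutation test over libraries, two-sided, p was 0.00952, which is the smallest value that 6 against 4 libraries allow, and 0.0143 after adjustment over the 3 ratios tested. The ratio of Sox7 to Sox18 differed in the other direction, at 5.43 ± 0.75 in intermediate libraries and 7.16 ± 0.14 in XEN libraries (SD, n = 6 and 4), a difference of -1.73 (exact permutation p = 0.00952, adjusted 0.0143). The ratio of Sox17 to Sox18 was 8.83 ± 0.38 in intermediate libraries and 8.03 ± 0.85 in XEN libraries (SD, n = 6 and 4), a difference of 0.80 that did not pass (exact permutation p = 0.105, adjusted 0.105). With Sox18 near 0 throughout, these 2 ratios to Sox18 are close to the levels of Sox7 and Sox17 themselves. Cells expressing none of the 3 factors therefore do enter these 2 ratios, and their part was not tested. The 6 intermediate libraries are 5 time points of 1 process and were treated as exchangeable in this test. Within the set of libraries without LOWDATA marks, day 16 replicate 2 and day 28 had Sox17 to Sox7 ratios of 2.70 and 3.46, above the highest XEN value of 1.73, where 2 against 4 libraries cannot go below p = 0.133 (exact permutation p = 0.133, adjusted 0.2). Fibroblast and pluripotency mRNA moved with the comparison. In intermediate against XEN cells, 14.6% of all genes were called higher and 2.61% lower. Of the fibroblast genes 6 of 10 were higher and none lower, and of the pluripotency genes 4 of 10 were higher and none lower. With the LOWDATA set as a covariate these counts were 3 and 1, and the pluripotency count was 7 with a pseudocount of 0.1 and 2 in a fit of the groups compared. At day 28 the fibroblast sum of 12.8 FPKM lay within the XEN range. The pluripotency sum there, at 363 FPKM, lay above the XEN range of 6.78 to 61.1 FPKM. The log2 ratio was 3.46 in that 1 library. The part of the fibroblast and pluripotency mRNA in the difference was not tested. The log2 ratio was 1.73 and 1.49 in CeXEN and -0.26 and 0.52 in eXEN, which was not tested at 2 libraries each.

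**Figure D2:**
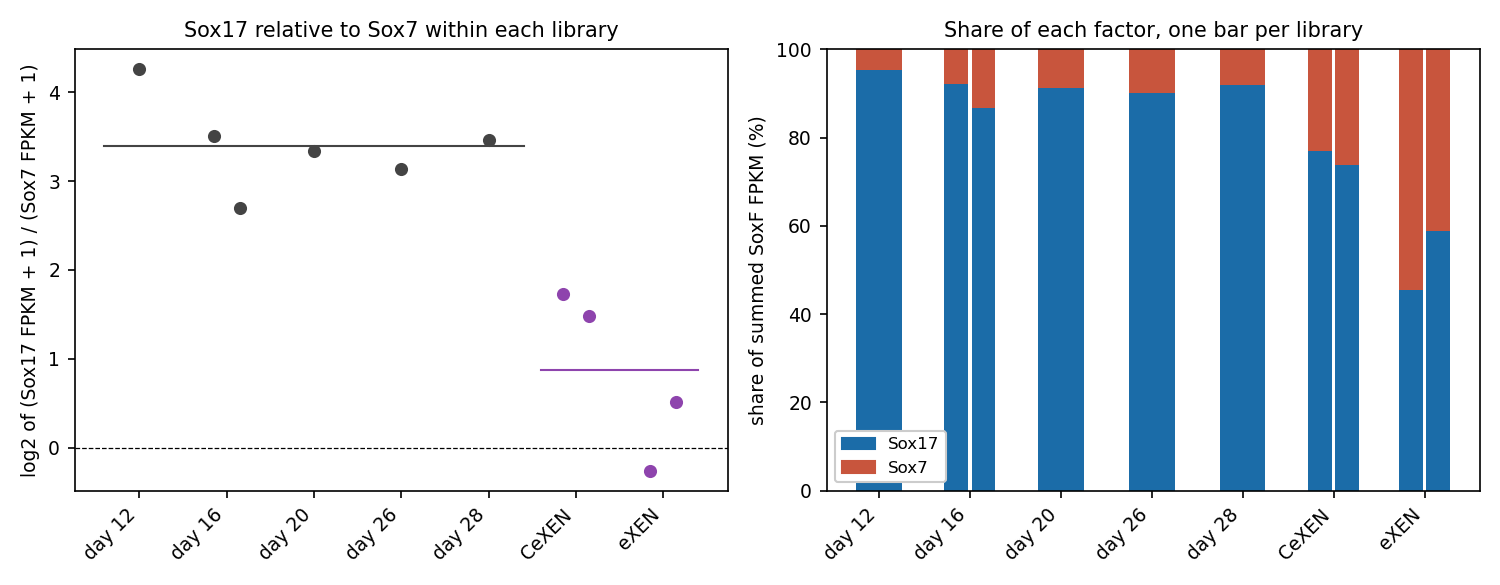
Left, log2 of the ratio of Sox17 to Sox7 (pseudocount 1) in each intermediate and XEN library, with horizontal lines at the mean of the 6 intermediate (3.40) and the 4 XEN libraries (0.87). Right, share of Sox17 and Sox7 in the summed SoxF FPKM, 1 bar per library. The Sox17 share is 86.8% or more in each intermediate library, 73.8% and 76.9% in CeXEN and 45.5% and 58.9% in eXEN.

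Gene by gene, changes were estimated in 1 linear model of log2(FPKM + 1) over all libraries and tested with limma across 16650 genes, with Benjamini-Hochberg adjustment. Calls needed both an adjusted p under 0.05 and a log2 change of 1 or more. Intermediate against XEN set the mean of the 5 day groups against the mean of CeXEN and eXEN. Days with 1 library add nothing to the spread behind its SE and p. Differences between days, with Sox7 at 16.3 to 65.7 FPKM over the intermediate libraries, do not enter them. Sox7 averaged 47.6 ± 16.5 FPKM in intermediate and 147 ± 22.2 FPKM in XEN libraries (SD, n = 6 and 4) and fell by 1.79 ± 0.15 on the log2 scale (SE, adjusted p = 8.35e-07), lower in 6 of 6 libraries. Sox17 averaged 483 ± 94.6 FPKM in intermediate and 299 ± 158 FPKM in XEN libraries (SD, n = 6 and 4), a change of 0.81 ± 0.21 (SE, adjusted p = 0.00893) that passed the p threshold but not the size threshold. Of all genes tested, 17.2% were called in this comparison, 14.6% higher and 2.61% lower. Calls numbered 2430 higher and 434 lower, against 1554 higher and 967 lower under quantile normalization. The median of all genes was 0.18, or -0.04 with quantiles equalised and 0.03 with median-of-ratios scaling. Under median-of-ratios scaling, Sox17 changed by 0.59 (adjusted p = 0.0697) and Sox7 by -2.004 (adjusted p = 4.78e-07). With the LOWDATA set as a covariate, which only the 2 day 16 libraries can inform, Sox17 changed by 0.47 (adjusted p = 0.507) and Sox7 by -1.55 (adjusted p = 0.00166).

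At the replicated day 16, Sox7 was lower than in either XEN source, and Sox17 was called higher against eXEN and did not pass against CeXEN. Against CeXEN, Sox7 averaged 58.8 ± 9.77 FPKM at day 16 and 137 ± 17.6 FPKM in CeXEN (SD, n = 2 each) and fell by 1.21 ± 0.23 (SE, adjusted p = 0.00276, limma), while Sox17 at 516 ± 119 and 424 ± 104 FPKM did not pass (0.28 ± 0.33 SE, adjusted p = 0.647, limma). In this comparison 11.3% of all genes were called, 9.11% higher and 2.18% lower (1516 and 363 genes, or 892 and 579 under quantile normalization). Against eXEN, Sox17 rose by 1.57 ± 0.33 (SE, adjusted p = 0.00333, limma), with an eXEN mean of 173 ± 35.8 FPKM (SD, n = 2), and Sox7 fell by 1.41 ± 0.23 (SE, adjusted p = 0.000528, limma), with an eXEN mean of 158 ± 27.5 FPKM. There 17.1% of all genes were called, 14% higher and 3.17% lower (2326 and 527 genes, or 1458 and 1139 under quantile normalization). These calls rest on the spread shared by all groups, since a fit of day 16 and CeXEN alone gave an adjusted p of 0.109 for Sox7, and a fit of day 16 and eXEN alone gave 0.0695 for Sox17 and 0.0599 for Sox7. With a pseudocount of 0.1 the adjusted p was 0.11 for Sox7 against CeXEN and 0.0714 for Sox17 against eXEN. The day 16 comparisons share their 2 libraries.

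Between the XEN cells, CeXEN against eXEN asks how XEN cells derived in chemical medium differ from the established line. Sox17 was 2.45 times as high by the means in CeXEN as in eXEN (424 ± 104 and 173 ± 35.8 FPKM, SD, n = 2 each) and rose by 1.28 ± 0.33 on the log2 scale (SE, adjusted p = 0.0279, limma), while 6.47% of all genes were called, 4.01% higher and 2.46% lower. The call was lost without any 1 of the 4 libraries (adjusted p = 0.0534 to 0.128), with no filter (0.0502), with either scaling (0.117 and 0.0598), with a pseudocount of 0.1 (0.221) and in a fit of the 2 groups alone (0.232), and each time CeXEN remained higher. Sox7 averaged 137 ± 17.6 FPKM in CeXEN and 158 ± 27.5 FPKM in eXEN (SD, n = 2 each) and did not pass (-0.19 ± 0.23 SE, adjusted p = 0.747, limma). The eXEN spread includes the change of medium, for replicate 1 in stage 1 medium had 148 FPKM of Sox17 and 177 of Sox7, and replicate 2 in traditional medium 198 and 138 FPKM. In stage 1 medium alone, labelled VC6TFAE for CeXEN and VC6TF for eXEN, Sox17 therefore stood at 498 and 351 FPKM in CeXEN and at 148 FPKM in eXEN replicate 1.

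Against cells without endoderm identity both factors were far higher. In day 16 against MEF, Sox17 rose by 8.86 ± 0.33 and Sox7 by 5.80 ± 0.23 (SE, adjusted p = 5.94e-10 and 7.61e-10, limma), in a comparison that called 20.7% of genes, 13.3% higher and 7.41% lower. In CeXEN against ESC, Sox17 rose by 7.95 ± 0.33 and Sox7 by 6.74 ± 0.23 (SE, adjusted p = 8.17e-10 and 1.82e-10, limma), where 30.3% of genes were called, 12.5% higher and 17.8% lower. In eXEN against ESC the changes were 6.66 ± 0.33 for Sox17 and 6.93 ± 0.23 for Sox7 (SE, adjusted p = 3.81e-09 and 8.46e-11, limma), where 28.1% of genes were called, 9.78% higher and 18.4% lower. Sox17 thus changed more than Sox7 at day 16 and in CeXEN, and by about as much as Sox7 in eXEN, an order that was not tested.

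CiPSC lines held little of either factor. Sox17 fell by 8.04 ± 0.26 and Sox7 by 5.33 ± 0.18 in CiPSC against day 16 (SE, adjusted p = 4.42e-11 and 6.72e-11, limma), where 29.9% of genes were called, 13% higher and 17% lower. Against ESC, Sox17 at 0.998 ± 0.556 FPKM in CiPSC (SD, n = 7) and 0.707 ± 0.225 FPKM in ESC (SD, n = 2) did not pass (0.19 ± 0.26 SE, adjusted p = 0.912, limma). Nor did Sox7, at 0.492 ± 0.187 FPKM in CiPSC and 0.288 ± 0.065 FPKM in ESC (SD, n = 7 and 2; 0.20 ± 0.18 SE, adjusted p = 0.825, limma), in a comparison that called 0.0601% of genes, 0.036% higher and 0.024% lower. Against MEF, both genes were slightly higher in CiPSC, by 0.82 ± 0.26 for Sox17 and 0.47 ± 0.18 for Sox7 (SE, adjusted p = 0.0165 and 0.0422, limma), below the size threshold, where 37% of genes were called, 21.7% higher and 15.3% lower. With a pseudocount of 0.1 these 2 changes were 2.48 and 1.76 and passed. Under quantile normalization the adjusted p was 0.0699 for Sox17 and 0.21 for Sox7, and without MEF replicate 2 it was 0.144 and 0.199.

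**Figure D3:**
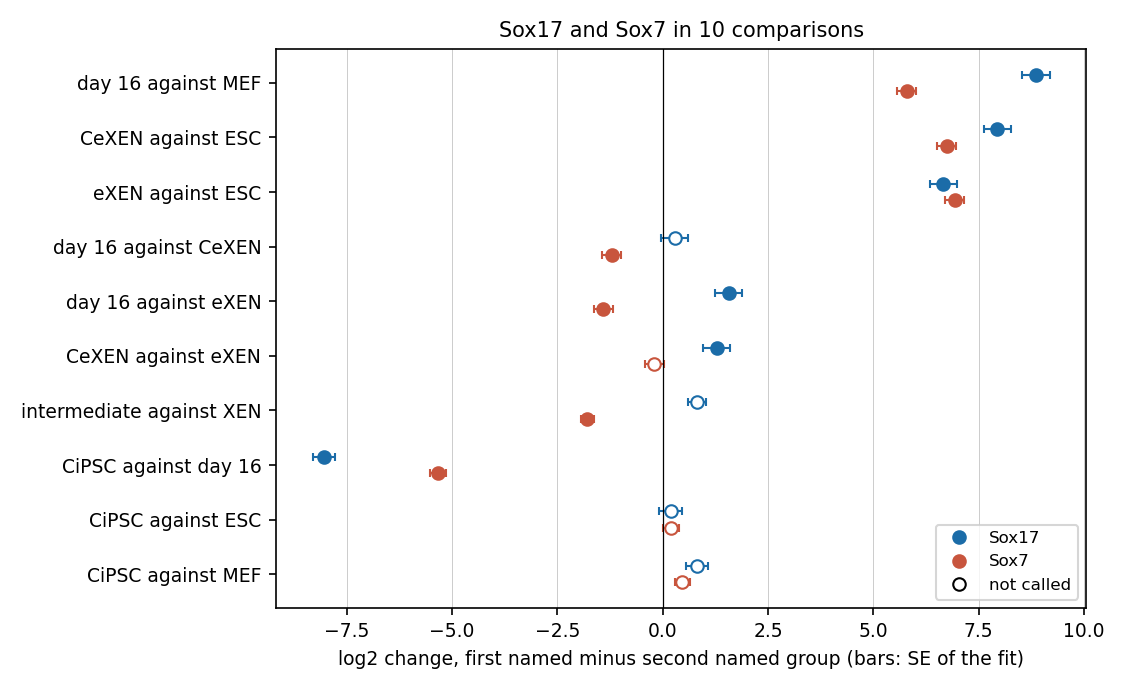
Log2 change of Sox17 and Sox7 with the SE of the fit on the horizontal axis in 10 comparisons, each named with the group on top of the change first; open points were not called. The 2 factors change together against MEF, ESC and CiPSC and differ in direction between intermediate and XEN cells, with Sox7 at -1.79 and Sox17 at 0.81.

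Over the time course, day 12 stood apart. Sox7 at day 12 was 30.2% of the mean of the 5 libraries from day 16 to day 28, which lay between 48.9 and 65.7 FPKM. Sox17 at day 12 was 64.3% of the later mean, and its later values were 432 to 599 FPKM. Gata4, a GATA factor of endoderm, was at 48.5% and Gata6, another, at 45.7% of their later means. Among the markers of other cells, the fibroblast sum was highest at day 12, and what part it has in these values was not tested. From day 16 on, no further rise was visible in either SoxF gene. As a linear trend from day 12 to day 28, Sox17 changed by 0.42 ± 0.31 and Sox7 by 0.87 ± 0.62 over 16 days (SE, adjusted p = 0.49 and 0.467, limma, 6 libraries). The trend called 0 of 16382 genes, of which 3338 had an unadjusted p under 0.05 by limma, the only tool run. Without the day 12 library the trend was 0.0347 for Sox17 and -0.27 for Sox7 (adjusted p = 0.976 and 0.693).

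The genes whose pattern over the 10 group means of log2(FPKM + 1) was most like that of each factor differed. Candidates were 11175 named genes with at least 5 FPKM in 1 group, and r is given as a description over 10 groups that share libraries and normalisation. For Sox17 they included the heparan sulfate sulfotransferase Hs3st1 (r = 0.998), the water channel Aqp8 (0.996), the retinol transporter Stra6 (0.995) and the homeobox factor Msx2 (0.991). Like Sox17, Stra6 had group means of 203 FPKM at day 12, 234 at day 16 and 253 in CeXEN and a lower mean of 80.2 FPKM in eXEN. For Sox7 they were the forkhead factor Foxa2 (r = 0.987), the laminin chain Lama1 (0.987), the hexokinase-like enzyme Hkdc1 (0.987), Gata6 (0.985) and the metalloprotease Adamts9 (0.983). Like Sox7, Foxa2 had means of 34.97 FPKM at day 12, 73.1 at day 16, 149 in CeXEN and 109 in eXEN. For several of these genes the eXEN libraries lay far apart, as for Hs3st1 (77.3 and 247 FPKM), Aqp8 (264 and 579), Hkdc1 (60.6 and 147) and Adamts9 (29.5 and 125). Those of Stra6 (88.0 and 72.3 FPKM) and Foxa2 (94.4 and 124) lay closer. Sox17 and Sox7 correlated with each other at r = 0.931 over the 10 group means, and 199 of the 11175 candidates were nearer to Sox17 than Sox7 was. The order of the genes depends on the measure. By Pearson's r Hs3st1, Aqp8 and Stra6 held ranks 2, 1 and 4 over the 21 libraries, while Msx2 held rank 35. For Sox7, Foxa2 held rank 1, Hkdc1 2, Lama1 6, Gata6 8 and Adamts9 29. By Spearman's rho over the group means the ranks were lower, at 63 for Hs3st1, 102 for Aqp8, 331 for Stra6 and 812 for Msx2 with Sox17, and at 27 for Foxa2, 3 for Lama1, 97 for Hkdc1, 39 for Gata6 and 97 for Adamts9 with Sox7.

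**Figure D4:**
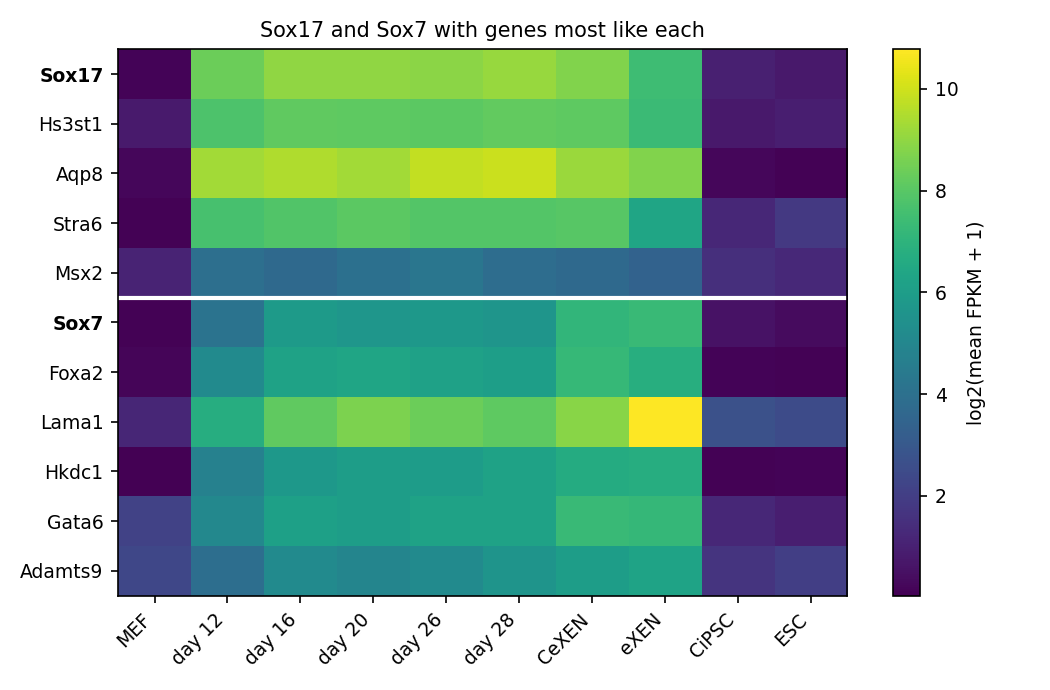
Group means as log2(mean FPKM + 1), in colour, of Sox17, Sox7 and genes most like each (4 for Sox17 and 5 for Sox7), over the 10 groups. Within the intermediate and XEN groups the Sox17 rows have their lowest mean in eXEN, and the Sox7 rows are higher in CeXEN and eXEN than from day 12 to day 28. In several rows the eXEN libraries behind the mean lie far apart.

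Other genes of the endoderm network were followed in lists, of which intermediate against XEN is given first. Of 18 tested endoderm regulators, 5 rose and 2 fell, with a median change of 0.36 beside 0.18 over all genes, of which 14.6% rose and 2.61% fell. Gata6 had 32.4 to 81.5 FPKM in intermediate and 109 to 208 FPKM in XEN libraries and fell by 1.25 ± 0.31 (SE, adjusted p = 0.00542, limma), so that it was lower in 6 of 6 libraries as Sox7 was. Gata4 had 188 to 457 FPKM in intermediate and 424 to 519 FPKM in XEN libraries and was not called. Sall4, a zinc finger factor of early lineages, fell by 1.5, and the FGF receptors Fgfr2 (2.18) and Fgfr1 (1.73) and the T-box factor Eomes (2.03) rose. Both FGF receptors were also expressed in MEF, at 76.7 to 107 FPKM for Fgfr1 and 9.21 to 23.0 FPKM for Fgfr2, and Fgfr2 was highest among intermediate libraries at day 12 (22.8 FPKM), as the fibroblast sum was. The part of fibroblast mRNA in these rises was not tested. The regulators that rose were 3 without eXEN replicate 2, and 2 with the LOWDATA set as a covariate or in a fit of the groups compared.

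Basement membrane and parietal endoderm genes formed a list, called basement membrane genes here, that includes known targets of Sox7 and Sox17. In intermediate against XEN cells, where 14.6% of all genes rose and 2.61% fell, 6 of 17 tested fell, 2 rose and 9 were not called. The list median was -0.65. The falls numbered 3 with the LOWDATA set as a covariate. Lama1 had 106 to 400 FPKM in intermediate libraries, and 578 and 352 FPKM in CeXEN and 921 and 2587 FPKM in eXEN, and fell by 1.71 ± 0.37 (SE, adjusted p = 0.00251, limma). Its intermediate and CeXEN ranges overlapped. Laminin Lamb1 (-2.04), the basement membrane linker Nid2 (-1.69) and laminin Lamc1 (-1.64) fell as well. The 2 that rose, named here after their values were seen, were the collagen IV chains Col4a1 (1.15) and Col4a2 (1.11), and they divided the XEN sources as Sox17 did. Col4a1 had 679 to 1758 FPKM in intermediate libraries, 2400 and 2364 FPKM in CeXEN and 88.6 and 218 FPKM in eXEN. The basement membrane genes that rose numbered 1 without day 20 or without day 28, and 0 without eXEN replicate 1 or under median-of-ratios scaling.

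In CeXEN against eXEN, 5 of the 17 basement membrane and parietal endoderm genes rose and 2 fell, with a median of -0.16 beside 0.06 over all genes. Of all genes, 4.01% rose and 2.46% fell. The rises of this list were led by Col4a1 (4.09) and Col4a2 (3.95), followed by the transcription factor Snai1 (2.30) and the proteoglycan core Srgn (2.01). The 2 that fell were Hspg2 (-1.83) and Nid2 (-1.49). The laminin chains Lama1 (-1.77), Lamb1 (-1.26) and Lamc1 (-1.19) were lower in CeXEN but not called. Of the 18 endoderm regulators 1 rose, near the share over all genes. It was the signalling protein Ihh, with 143 and 194 FPKM in CeXEN and 39.9 and 13.6 FPKM in eXEN (2.78 ± 0.37 SE, adjusted p = 0.00036, limma). Neither GATA factor was called. Gata6 was at 208 and 109 FPKM in CeXEN and 112 and 176 FPKM in eXEN, and Gata4 at 441 and 431 FPKM in CeXEN and 424 and 519 FPKM in eXEN, so both overlapped. Without CeXEN replicate 2 or without eXEN replicate 2, 3 basement membrane genes rose and 0 fell, and without eXEN replicate 1, 7 fell. The regulators that rose were 2 without CeXEN replicate 1 and 3 without eXEN replicate 1. A fit of the 2 groups alone called 0 genes of either list.

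In day 16 against MEF, 12 of the 18 endoderm regulators rose and 1 fell, with a median of 2.90 beside 0.22 over all genes. Of the 17 basement membrane genes, 9 rose and 1 fell. Of all genes, 13.3% rose and 7.41% fell. Neither list had a fall in a fit of the groups compared. The co-regulator Cited1 (9.10), Gata4 (8.42) and Ihh (6.69) rose most among the regulators, and Sox17 at 8.86 lay between Cited1 and Gata4.

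Visceral endoderm genes encode carriers and receptors of the outer endoderm layer. In intermediate against XEN cells, where 14.6% of all genes rose and 2.61% fell, 5 of 11 tested rose and 1 fell, with a median of -0.06. The falls numbered 0 without day 28 or without day 16 replicate 1, 2 with a pseudocount of 0.1 or median-of-ratios scaling and 3 under quantile normalization, and the rises 3 with the LOWDATA set as a covariate. The apolipoprotein Apoa1 (2.01) and the iron carrier Trf (1.65) rose most, and Amn (-1.06) was the 1 that fell. Lrp2 (-0.87), Ctsz (-0.73) and Ttr (-0.58) were lower as well, below the size threshold. Levels stayed low for Apoa1, at 0.151 to 26.7 FPKM in intermediate and 0 to 0.466 FPKM in XEN libraries. They were low for Trf too, with group means of 1.82 to 4.23 FPKM from day 12 to day 28, 0.460 in CeXEN and 0.127 in eXEN. Amn averaged 8.12 FPKM in CeXEN and 0.218 FPKM in eXEN.

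Of 12 other Sox genes tested in intermediate against XEN cells, 8 rose and none fell, where 14.6% of all genes rose and 2.61% fell. The list median was 1.18. The rises were 4 without eXEN replicate 2, 4 under quantile normalization and 3 with the LOWDATA set as a covariate. The largest changes were those of Sox9 (3.07), Sox4 (2.37), Sox21 (1.57) and Sox11 (1.56), factors of progenitor and neural cells. Sox4 was also expressed in MEF at 43.2 and 56.3 FPKM and Sox11 at 4.95 and 7.56 FPKM. Sox9 averaged 5.21 ± 5.28 FPKM in MEF and 17.1 ± 22.6 FPKM at day 16 (SD, n = 2 each), so its day 16 libraries lay far apart. Sox4 was at 35.7 FPKM at day 12 and 8.30 FPKM at day 28, the libraries with the highest and the lowest fibroblast sum of the 6, whose part in these rises was not tested. Sox13 had 30.9 to 61.4 FPKM in intermediate and 1.75 to 41.2 FPKM in XEN libraries. Sox21 and Sox13 divided the XEN sources as Sox17 did, at 41.7 and 24.5 FPKM and 41.2 and 39.8 FPKM in CeXEN against 2.76 and 1.23 FPKM and 16.9 and 1.75 FPKM in eXEN, with changes of 3.51 ± 0.47 and 2.57 ± 0.55 (SE, adjusted p = 0.000367 and 0.0109, limma). With Sox2 they were the 3 of 12 that rose in CeXEN against eXEN, a count that was 1 without CeXEN replicate 2 and 0 in a fit of the 2 groups alone. Of all genes, 4.01% rose and 2.46% fell in CeXEN against eXEN. Sox2, the SoxB factor of pluripotent cells, had 1.69 to 10.6 FPKM in intermediate libraries, 2.25 and 16.2 FPKM in CeXEN and 0.0268 and 0.255 FPKM in eXEN.

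Endothelial genes were examined because SoxF factors are best known from vessels. Of 17 tested, 4 rose and 1 fell in intermediate against XEN cells, with a median of 0.42, beside 14.6% of all genes higher and 2.61% lower. The rises were 8 with a pseudocount of 0.1, 2 in a fit of the groups compared and 1 with the LOWDATA set as a covariate or with day 16 replicate 2 and day 28 alone. The TGF beta co-receptor Eng (1.84), the clotting factor carrier Vwf (1.77) and the adhesion protein Esam (1.60) rose, and the secreted protein Egfl7 (-1.43) fell. Eng was also expressed in MEF, with means of 16.1 FPKM there, 7.31 at day 12, 1.96 at day 28, 0.191 in CeXEN and 0.0553 in eXEN. Vwf and Esam averaged 0.215 and 0.134 FPKM in MEF. The part of fibroblast mRNA in the rise of Eng was not tested. In CeXEN against eXEN 2 of the 17 rose, the adhesion proteins Esam (3.66) and Cdh5 (2.27), and 0 fell. The list median was 0.02 beside 0.06 over all genes, of which 4.01% rose and 2.46% fell. A fit of the 2 groups alone called 0 genes higher. The levels of the list ranged widely. The VEGF receptor Flt1 had 39.0 to 134 FPKM in intermediate and 6.75 to 209 FPKM in XEN libraries, Esam 13.46 to 31.5 FPKM in intermediate and 0.412 to 41.1 FPKM in XEN libraries, and the angiopoietin receptor Tek 2.34 to 10.5 FPKM in intermediate and 1.90 to 26.8 FPKM in XEN libraries. These and the next were named after their values were seen. Pecam1, an adhesion protein of endothelial cells, had 0.166 to 2.54 FPKM in intermediate and 0.0207 to 0.56 FPKM in XEN libraries, and the ETS factor Erg 0 to 2.27 FPKM in intermediate libraries and 0 in each XEN library. The maxima of Pecam1 and Erg were those of day 12, where 16 of the 21 endothelial genes had at least 1 FPKM, against 10 or 11 in the other intermediate libraries and 5 to 8 in XEN libraries. Sox18 at day 12 was 0.148 FPKM.

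Among partners of SoxF proteins and effectors of Wnt signalling, 2 of 12 rose and 1 fell in intermediate against XEN cells. The list median was 0.74 beside 0.18 over all genes. Of all genes, 14.6% rose and 2.61% fell, so the rises were near the share over all genes. With a pseudocount of 0.1, 5 rose. Without eXEN replicate 1, 4 rose and 2 fell. The fall was not called without day 12, day 16 replicate 2 or eXEN replicate 2, and 2 fell without day 28. The Wnt feedback inhibitors Notum (3.13) and Nkd1 (1.99) rose and the repressor Tcf7l1 (-1.09) fell. Axin2 (0.49), Tcf7 (0.99), Lef1 (1.01) and Lgr5 (1.03) of the same list were not called.

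**Figure D5:**
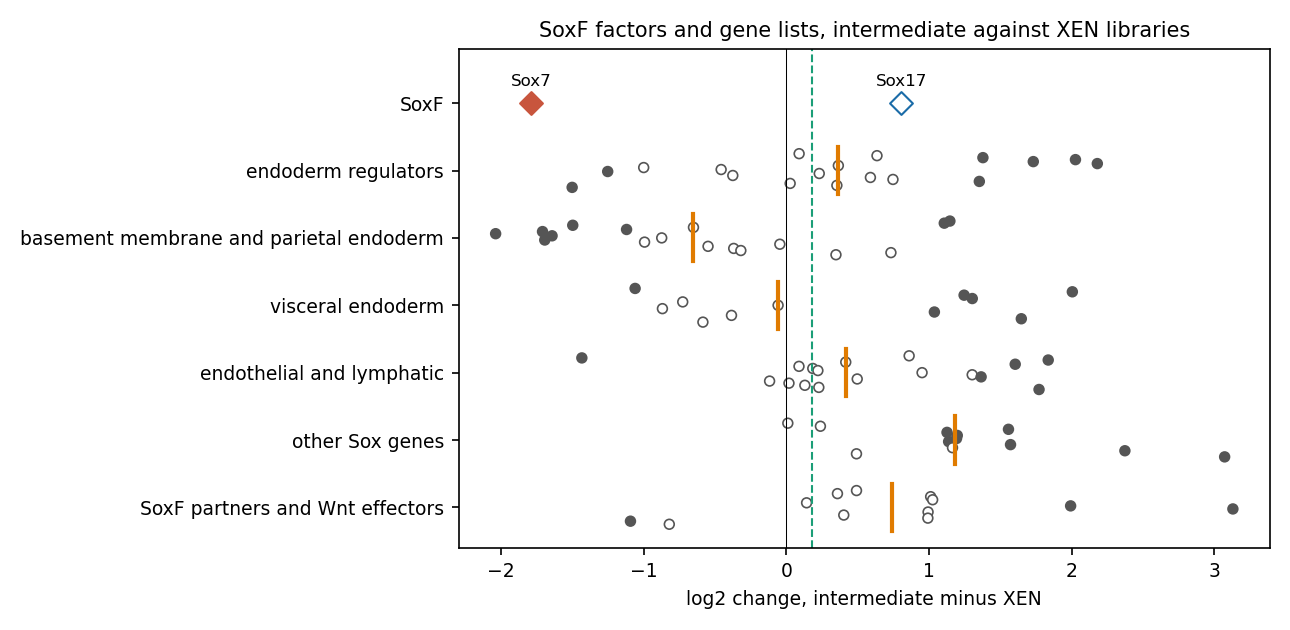
Log2 change of Sox7 and Sox17 (diamonds) and of each tested gene of 6 lists (circles) in intermediate minus XEN cells on the horizontal axis; filled symbols were called, orange bars are list medians and the dashed line is the median of all genes (0.18). Sox7 at -1.79 lies among the lowest laminin genes, and most of the other Sox genes lie above 0.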

How the data were processed

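RNA of 21 mouse libraries was read from 1 table per library. The FPKM values and their bounds were deposited by the authors, made with TopHat and Cufflinks on mm10 per the submitters' processing notes; versions, gene models and strand setting are not given in the sources used here. RNA was prepared with RNeasy and NEBNext Ultra kits, per the labels' protocols. File positions were counted from 0 and are given from 1. FPKM of IDs with several loci were added. Genes reaching 1 FPKM in 2 or more libraries entered the tests on log2(FPKM + 1), which understates changes of low genes, with limma 3.58.1 (R 4.3.3), intensity trend, 11 residual degrees of freedom and Benjamini-Hochberg adjustment. The trend had 4 degrees of freedom before moderation. Ratios were tested in Python 3.11.15 with an exact permutation test. The limma fit was tested on simulated data with known changes, scored in CeXEN against eXEN, and the permutation test on values with a known answer. Members and gene lists were chosen with earlier results of these data known. Genes were named as members, up to 4 called genes of largest change per list, Gata4, Gata6 and Lama1, and 5 most alike genes per factor, of which 1 gene is not reported here. Depth is unknown, apart from the fragments implied by the bounds, which cover counting error only. The alternatives concern the pseudocount, filter, scaling, fit, replicate block, quantifier set and left-out libraries.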

Additional observations from a re-analysis of the deposited data

Results flagged for a closer look

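Gata6 in CiPSC line C3 stood at 3.79 FPKM, apart from the other 6 lines, which had 0.346 to 1.26 FPKM, by more than a 7-sample test for outlying values allows. Of the 6 genes examined over the CiPSC lines (the 3 SoxF factors, Gata4, Gata6 and Lama1) it was the only one, and chance flags about 1 in 20 such groups.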

How the results depend on the processing

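Sox7 in intermediate against XEN cells stayed lower and called under each alternative run, as did the ratio of Sox17 to Sox7 except with day 16 replicate 2 and day 28 alone (2.21, and -1.37 for Sox7 to Sox18, adjusted exact permutation p = 0.2 each). With a pseudocount of 0.1, Sox7 in day 16 against CeXEN (-1.22), Sox17 in day 16 against eXEN (1.57) and Sox17 in CeXEN against eXEN (1.29) lost their calls, and Sox17 (2.48) and Sox7 (1.76) in CiPSC against MEF gained them. Sox17 in CeXEN against eXEN also lost its call with no filter (1.28), quantile normalization (0.98), median-of-ratios scaling (1.198), the 2 groups alone (1.28) and each left-out library (1.03 to 1.53). With only the groups compared, the day 16 calls of Sox7 against CeXEN (-1.21) and of Sox17 (1.57) and Sox7 (-1.41) against eXEN were lost. Leaving out 1 library gave 0.48 to 1.11 for the ratio of Sox17 to Sox18, which passed without CeXEN replicate 1 (adjusted exact permutation p = 0.0476), and -0.27 to 1.31 for the Sox7 trend, negative without day 12. Gata6 in CeXEN against eXEN was -0.19 under quantile normalization and -0.36 to 0.56 with 1 library left out, and Gata4 -0.25 to 0.0399. The cause was not tested.

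Replicate numbers did not pair the samples (correlations of deviations from -0.12 to 0.05), and a replicate block changed no call of Sox17 or Sox7 in the fit of all groups (for Sox17 in CeXEN against eXEN 1.28, adjusted p = 0.034, limma). In day 16 against eXEN alone the block left Sox17 at 1.57 and Sox7 at -1.41, adjusted p 0.118 and 0.108, with 145 genes higher and 12 lower. The crossed pairing, chosen after seeing the data, gave the same 1.57 and -1.41, with 0 genes called in either direction.

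Fits of the compared groups alone called 593 genes higher and 234 lower in day 16 against MEF (2219 and 1233 in the fit of all groups), 0 and 0 against CeXEN (1516 and 363), 824 and 100 against eXEN (2326 and 527), and 0 and 2 in CeXEN against eXEN (668 and 409). In CeXEN against eXEN 1536 genes were higher without CeXEN replicate 1, 295 without CeXEN replicate 2 and 317 without eXEN replicate 2. In intermediate against XEN cells, 2430 higher and 434 lower became 3811 higher with a pseudocount of 0.1 and 1462 and 201 with the LOWDATA set as a covariate. The alternatives that concern LOWDATA and the choice of intermediate days were chosen after seeing the data. Sox18 failed the filter and has values only without it. With unknown depth and 1 to 2 libraries in 9 of the 10 groups, small differences were not detectable.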

Other observations

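The nearest annotated gene above Sox17 is Gm37587, a noncoding transcript on the other strand whose mm10 span of 4496551 to 4499558 overlaps Sox17 by 804 bases. It had 0.184 to 0.942 FPKM in the 10 intermediate and XEN libraries and was listed at 0 in the 11 MEF, CiPSC and ESC libraries. The strand setting of the counting is not given, so reads of the overlap cannot be told apart. Pinx1, 23813 bases below Sox7, had 14.1 to 30.4 FPKM in intermediate and XEN libraries and 8.65 to 19.8 FPKM in the others. Tcea2, 8669 bases above Sox18, had 1.02 to 4.70 FPKM and 1.31 to 3.82 FPKM in the same 2 sets of libraries. Rp1 below Sox17, 4930578I06Rik above Sox7 and the small RNA Gm25879 below Sox18 stood below 0.1 FPKM in each library.

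The 5 genes most like Sox18 over the 10 group means were Sod2, Pla2g1b, Hsd17b14, Lck and Aim2 (r = 0.985 to 0.988), all higher in CiPSC and ESC. Over the 21 libraries their r was 0.756 to 0.828, and Sox18 itself rests on few fragments in each library.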
